A study of Mus musculus with 2 samples.

Results

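The genes described here are the matrix metalloproteinases (MMPs), the ADAMTS proteases, the ADAMTS-like proteins and the tissue inhibitors of metalloproteinases (TIMPs). They were chosen by a rule on symbols alone, which uses none of their values but was set with earlier results of these data known. They number 51 of the 55536 genes in the tables: 23 MMPs, 19 ADAMTS, 5 ADAMTS-like genes and 4 TIMPs. Total RNA, 300 ng per library, was sequenced from gastrocnemius, the fast calf muscle, of female B6CASTF1/J mice, F1 hybrids of C57BL/6J and CAST/EiJ, at 14 days of age. The series holds 2 libraries, replicates 1 and 2 of a single group, and offers no contrast of treatments, ages or tissues. Their labels call them biological replicates, but differ on whether 3 females or a single one gave replicate 2, so the spread between them may be technical as well as between animals. Values below are given as replicate 1 and then replicate 2, or as mean ± SD (n = 2).

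MMPs are zinc enzymes that cut collagens, laminins and other matrix proteins, and most are made as inactive precursors. ADAMTS proteases carry thrombospondin repeats that bind them to the matrix, where they trim procollagens, cut the large proteoglycans or act on microfibrils. ADAMTS-like proteins have the repeats without the protease, and TIMPs block the active site. In muscle, most of the connective tissue sheath that these proteins act on is made by fibroblasts, tendon cells and vessel cells, while the fibres supply most of the RNA. In whole muscle RNA, fewer cells of a type and less RNA per cell cannot be told apart.

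The gene counts summed to 35592003 and 42105856, of which the members held 31574 and 42735, or 0.0887% and 0.101%. All 6 muscle fibre markers (among them Acta1, Ckm and Myh4) were found, with a summed abundance of 99740 and 105883 TPM, and Acta1 alone at 28140 and 30304 TPM, so the defining markers of muscle were present. TPM is an abundance of transcripts, divided by transcript length and scaled to a fixed sum. All 7 fibro-adipogenic, 6 endothelial, 7 mural, 6 tendon and 6 macrophage markers reached 1 TPM in both libraries. Of 6 neutrophil markers none did, and Ly6g and Elane had 0 counts in both. All member counts were whole numbers with a deposited posterior standard deviation of 0, whereas 7.88% of all genes had a non-whole count.

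The active site of these proteases is printed first because it separates the enzymes from their relatives. In the sequences that follow, read from the GENCODE M21 transcripts (mm10 coordinates), capitals mark the codons of the 3 histidines that hold the zinc and of the catalytic glutamate. The MMP sites come first.
Mmp2, chr8:92839279-92839311, plus strand: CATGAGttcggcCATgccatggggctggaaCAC
Mmp9, chr2:164951133-164951165, plus strand: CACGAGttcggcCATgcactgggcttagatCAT
Mmp14, chr14:54437627-54437659, plus strand: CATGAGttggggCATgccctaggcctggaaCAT
Mmp15, chr8:95368585-95368617, plus strand: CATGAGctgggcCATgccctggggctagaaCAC
Mmp13, chr9:7276573-7276605, plus strand: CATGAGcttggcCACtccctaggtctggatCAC
The ADAMTS sites follow, first those with and then those without the glycine codon of the usual motif. Their coordinates span an intron.
Adamts2, chr11:50775403-50776134, plus strand: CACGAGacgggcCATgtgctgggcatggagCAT
Adamts12, chr15:11241529-11255564, plus strand: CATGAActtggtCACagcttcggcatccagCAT
Adamts5, chr16:85878015-85887826, minus strand: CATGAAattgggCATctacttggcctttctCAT
Adamts20, chr15:94353678-94355296, minus strand: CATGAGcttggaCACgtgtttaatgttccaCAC
Adamts1, chr16:85799191-85799545, minus strand: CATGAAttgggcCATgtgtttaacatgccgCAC
A search of the annotated coding sequences for 3 histidines, the glutamate and a glycine at their usual spacing matched 23 of 23 MMPs and 13 of 19 ADAMTS. The 6 ADAMTS not matched (Adamts1, Adamts4, Adamts8, Adamts9, Adamts15 and Adamts20) all matched when the glycine was not required, a pattern added after the first result was seen. These 6 are members of the hyalectanases, which cut proteoglycans such as aggrecan and versican, and Adamts5 is the hyalectanase that did match. With the looser pattern 19 of 19 ADAMTS matched, and none of the 5 ADAMTS-like genes or the 4 TIMPs did. The site lay within 1 exon in 23 of 23 MMPs, and it was split between exons in every ADAMTS gene, none of 19 having it in 1 exon.

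Of the 51 members, 31 (60.8%) had at least 1 TPM in both libraries, against 21.5% of all genes in the tables, non-coding ones included. They were 8 of 23 MMPs, 14 of 19 ADAMTS, 5 of 5 ADAMTS-like genes and 4 of 4 TIMPs. The members together held 0.0314% and 0.0372% of the TPM of all genes. The 3 highest, Mmp2, Timp2 and Timp3, held 46.1% and 48.3% of the members' TPM. By summed TPM the MMPs had 104.8 and 138.6, the TIMPs 98.88 and 111.9, the ADAMTS 62.77 and 76.86, and the ADAMTS-like genes 43.36 and 39.56. Mmp2 ranked 965th among all genes, and 9 members lay above the median of 8.40 TPM of the protein-coding genes with at least 1 TPM.

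**Figure D1:**
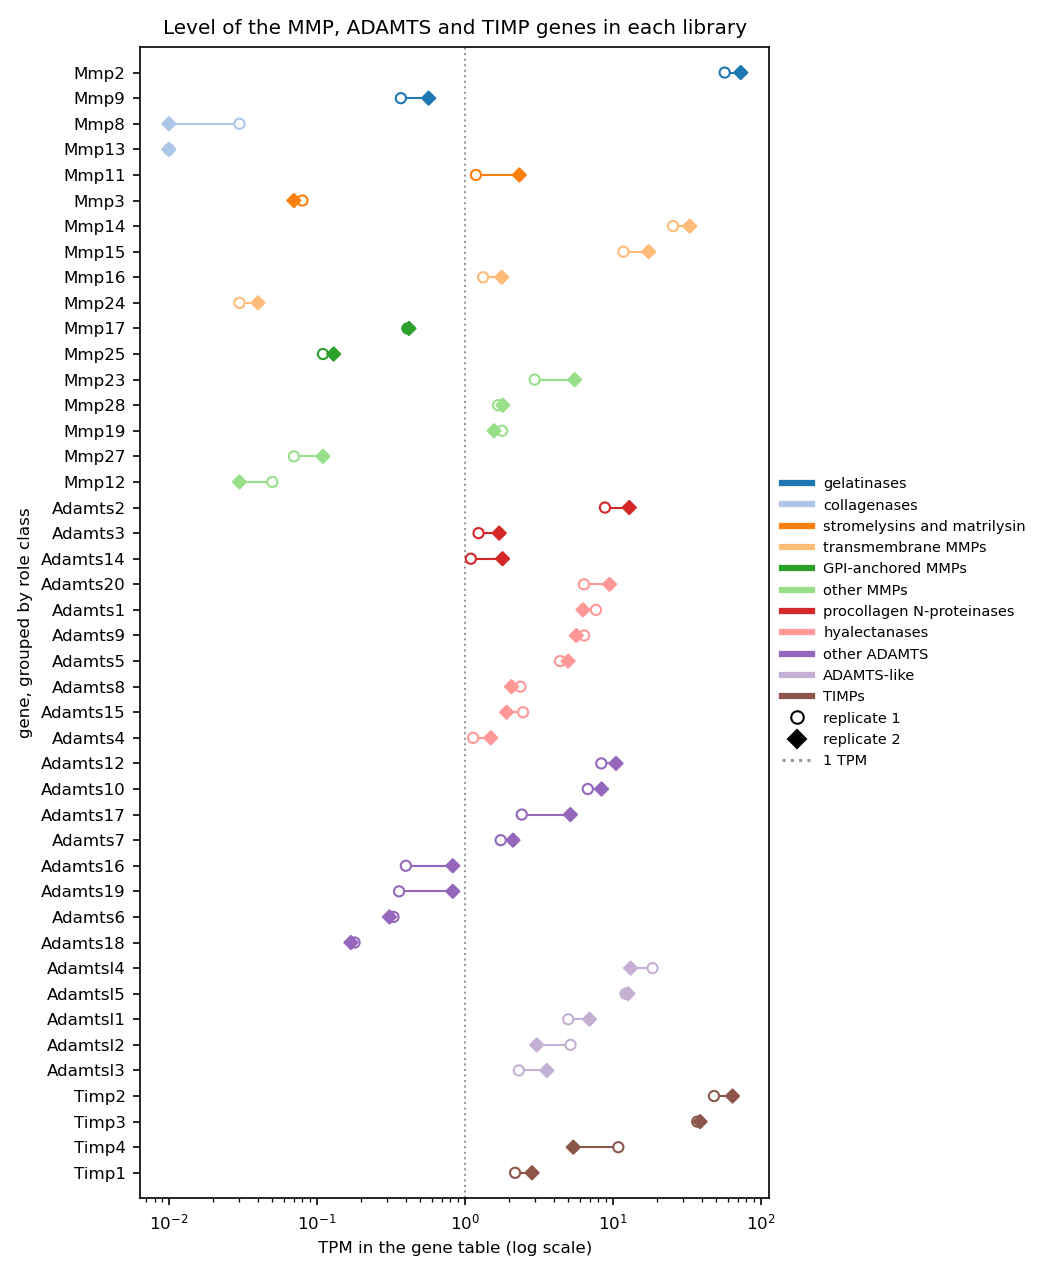
TPM of each gene in replicate 1 (open circle) and replicate 2 (filled diamond) on a log axis, grouped by role class. The TIMPs, ADAMTS-like genes and hyalectanases lie right of the 1 TPM line in both libraries, and among the gelatinases Mmp2 lies far right of Mmp9. Mmp21 and Adamts13, each at 0 in 1 library, and the 5 members at 0 in both are not drawn.

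In the order of mean TPM, the 31 genes form 30 neighbouring pairs. The deposited intervals belong to a posterior mean TPM, and their level is not given in the sources used here. They need not hold the TPM used for the order: Adamts17 in replicate 1 was at 2.43 TPM, with bounds of 2.444 and 4.122. They lay apart in both libraries for 5 pairs. These were Mmp2 over Timp2, Timp2 over Timp3, Timp3 over Mmp14, Mmp14 over Adamtsl4, and Adamtsl1 over Adamts5. The order of 20 pairs differed between the libraries, so below the leading genes most neighbours did not differ beyond their spread.

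Among the gelatinases, which cut denatured and basement membrane collagen, Mmp2 was the highest member of all, at 57.18 and 73.44 TPM (65.3 ± 11.5). Mmp9, the gelatinase known from leukocytes and remodelling bone, was at 0.37 and 0.57 TPM, from 27 and 57 counts. Mmp2 was 155 and 129 times as abundant as Mmp9 per length. Both genes have the site printed above.

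The transmembrane MMPs act at the cell surface. Mmp14, known for activating the Mmp2 precursor in a complex with Timp2, was at 25.60 and 33.18 TPM, and Mmp15 at 11.83 and 17.52 TPM. Mmp16 was at 1.33 and 1.78 TPM, and Mmp24, known from neurons, had 3 and 5 counts. Mmp2, Mmp14 and Timp2, the 3 genes of that complex, were thus all among the 4 highest members. Timp2 was 1.89 and 1.95 times as abundant as Mmp14.

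The other MMPs at 1 TPM or more were fewer and lower. Mmp23, whose product is a membrane-bound enzyme without the usual hemopexin domain, was at 2.97 and 5.54 TPM. Mmp11, stromelysin 3, which furin activates inside the cell, was at 1.19 and 2.34 TPM. Mmp28 (epilysin) was at 1.68 and 1.81 TPM and Mmp19 at 1.79 and 1.58 TPM. The highest GPI-anchored member, Mmp17, was at 0.41 and 0.42 TPM, and Mmp25 at 0.11 and 0.13 TPM. Of the 4 collagenases none exceeded 3 counts over both libraries: Mmp8 had 2 and 1, Mmp13 had 1 and 1, and Mmp1a and Mmp1b had 0. The stromelysins Mmp3 and Mmp10 had 4 and 4 counts and 0, respectively. A count of 0 allows up to 3 counts in a library, and this covers counting error only.

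The procollagen N-proteinases remove the amino-terminal propeptides of fibrillar collagens, and all 3 passed 1 TPM in both libraries. Adamts2 was at 8.87 and 12.95 TPM, Adamts3 at 1.24 and 1.71 TPM and Adamts14 at 1.10 and 1.80 TPM. Adamts2 was 7.15 and 7.57 times as abundant as Adamts3, and 8.06 and 7.19 times as abundant as Adamts14, so both libraries had the same leader by a wide margin.

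The hyalectanases shared their summed TPM of 31.5 ± 0.749 among several genes instead of 1 leader. Adamts20, known for versican cleavage in development, was at 6.40 and 9.53 TPM. Adamts1 was at 7.71 and 6.30 TPM, Adamts9 at 6.42 and 5.68 TPM and Adamts5 at 4.41 and 5.0 TPM. Adamts1 led in replicate 1 and Adamts20 in replicate 2, so the leader was not settled by these libraries. Adamts8 was at 2.38 and 2.07 TPM, Adamts15 at 2.48 and 1.92 TPM, and Adamts4, known as an aggrecanase of cartilage, at 1.14 and 1.5 TPM. All 7 members of this class passed 1 TPM in both libraries, while of their large substrates versican (Vcan) was at 7.62 and 13.24 TPM and aggrecan (Acan) at 0.66 and 1.16 TPM.

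Of the 9 remaining ADAMTS genes, 4 passed 1 TPM in both libraries. Adamts12, which like Adamts7 can cut the tendon and cartilage protein Comp, was at 8.38 and 10.54 TPM, and Adamts7 at 1.75 and 2.12 TPM. Adamts10, a partner of fibrillin microfibrils, was at 6.79 and 8.41 TPM, and Adamts17 at 2.43 and 5.18 TPM. Adamts16, Adamts19, Adamts6 and Adamts18 were lower, with mean levels of 0.615, 0.595, 0.320 and 0.175 TPM. Adamts13, which cuts von Willebrand factor and is made mainly in the liver, had 0 and 1 counts.

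All 5 ADAMTS-like genes, whose products bind microfibrils and other matrix proteins, passed 1 TPM in both libraries. Adamtsl4 was the highest at 18.62 and 13.22 TPM, followed by Adamtsl5 at 12.22 and 12.70 TPM. Adamtsl1 was at 5.01 and 6.98 TPM, Adamtsl2 at 5.19 and 3.07 TPM and Adamtsl3 at 2.32 and 3.59 TPM. The class without a protease site thus held 14.0% and 10.8% of the members' TPM.

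The TIMPs were led by Timp2, at 48.45 and 64.61 TPM, and by Timp3, the TIMP that binds to the matrix itself, at 37.32 and 39.03 TPM. Timp4, known from heart, muscle and fat, was at 10.92 and 5.42 TPM. Timp1, the inhibitor best known for its rise in injury and inflammation, was the lowest at 2.19 and 2.85 TPM. Their summed TPM was 0.944 and 0.808 times that of the MMPs (0.876 ± 0.0965), and 0.590 and 0.519 times that of MMPs and ADAMTS together. These are ratios of RNA per length and say nothing of the proteins.

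The ratio of inhibitors to MMPs depended on the quantification. A direct quantification, the second deposited transcript table summed per gene, gave 1.24 and 1.04 in place of 0.944 and 0.808. It also turned the order of the leading pair, since Mmp2 over Timp2 was 1.18 and 1.14 in the gene table and 0.722 and 0.699 in the direct quantification. Over the 31 genes the direct level was a median 1.28 times that of the gene table, beside 1.33 for all genes with at least 1 TPM. Timp2 moved the most, to 1.84 times its gene table level (104.0 against 56.5 TPM), and Adamtsl2 was the only one of the 31 below 1, at 0.944 times.

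**Figure D2:**
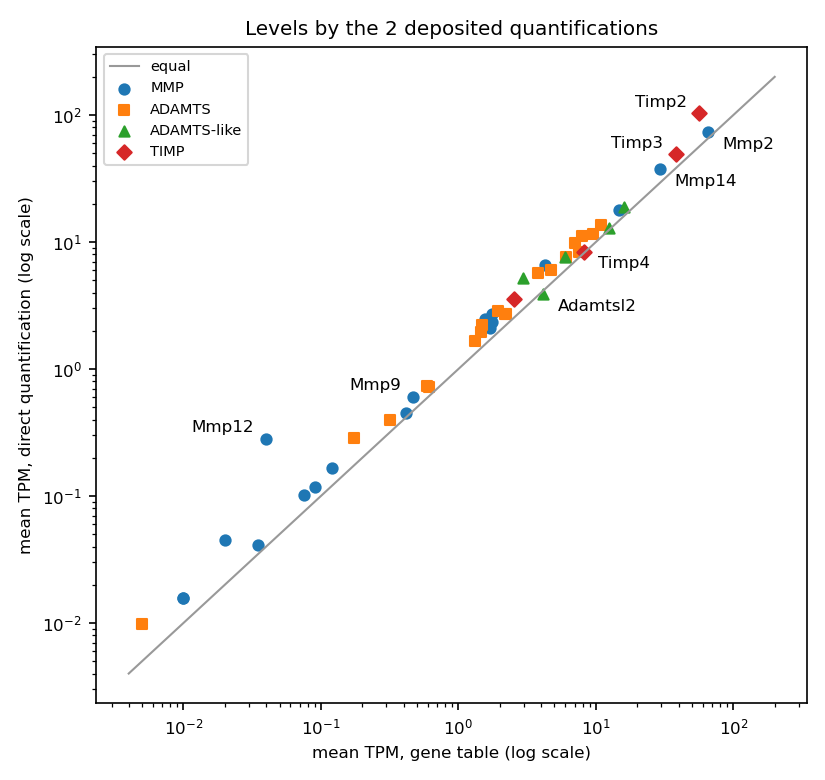
Mean TPM of the members in the gene table (x axis) and in the direct quantification (y axis), both on log axes, with the line of equal values. Timp2 lies above the line and above Mmp2 on the y axis, Adamtsl2 lies just below the line, and Mmp12 lies far above it at a level under 1 TPM.

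Of the 31 genes, 30 have several annotated transcripts, and in all 30 the leading transcript did not change from 1 library to the other, in the alignment-based tables as in the direct ones. The 2 quantifications named the same one for 27, the others being Timp2, Timp1 and Adamts4. For Timp2 the long transcript of 3709 bases held 70.09% and 70.22% of TPM by the alignment-based table, and the short one of 718 bases held 51.4% in both libraries by the direct one. Shares could still move where the leader did not: the leading Adamtsl3 transcript held 100% and 87.31% of TPM by the alignment-based table and 96.1% and 52.4% by the direct one. Mmp2 had 69.1% and 70.2% of its TPM on the transcript that holds the zinc site printed above, by the alignment-based table. By the direct one it was 82.1% and 80.9%. A protein-coding transcript of 674 bases without the site held 30.71% and 29.64% by the first and 17.95% and 19.07% by the second. In the alignment-based table this short transcript had 284.0 and 407.0 of the gene's 3597 and 5404 counts.

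The share of TPM on transcripts not annotated as protein-coding set 3 genes apart. Such transcripts include those of nonsense-mediated decay, which can hold an annotated coding sequence. The limit was 20% in both libraries of the alignment-based table and was chosen after the values were seen. Adamts7 (34.9% and 15.6%) and Adamtsl1 (20.2% and 17.0%) passed it in replicate 1 alone. Even so, 100% of Adamts7 TPM in both libraries of that table lay on transcripts whose coding sequence holds the zinc site. The direct quantification changed the set: Adamtsl2, at 25% and 18.2%, no longer passed in both libraries, while Adamts20 (22.5% and 21.1%) and Mmp16 (26.5% and 30.9%) did. By the alignment-based table the share was 67.3% and 60.7% for Adamtsl5, whose leading transcript is a retained intron of 3520 bases. By that table it was 60.9% and 61.0% for Adamts10 and 53.0% and 40.7% for Adamtsl2. By the direct one it was 93.2% and 84.5% for Adamtsl5 and 53.2% and 58.9% for Adamts10. For Adamts10 32.6% and 30.4% of TPM lay on transcripts with the zinc site, the lowest share of the 22 proteases with at least 1 TPM, so 2.22 and 2.56 of its TPM came from them. For Mmp14 that share was 89.8% and 95.8%, for Mmp15 97.8% and 96.6%, and for Adamts2 91.3% and 90.0%.

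**Figure D3:**
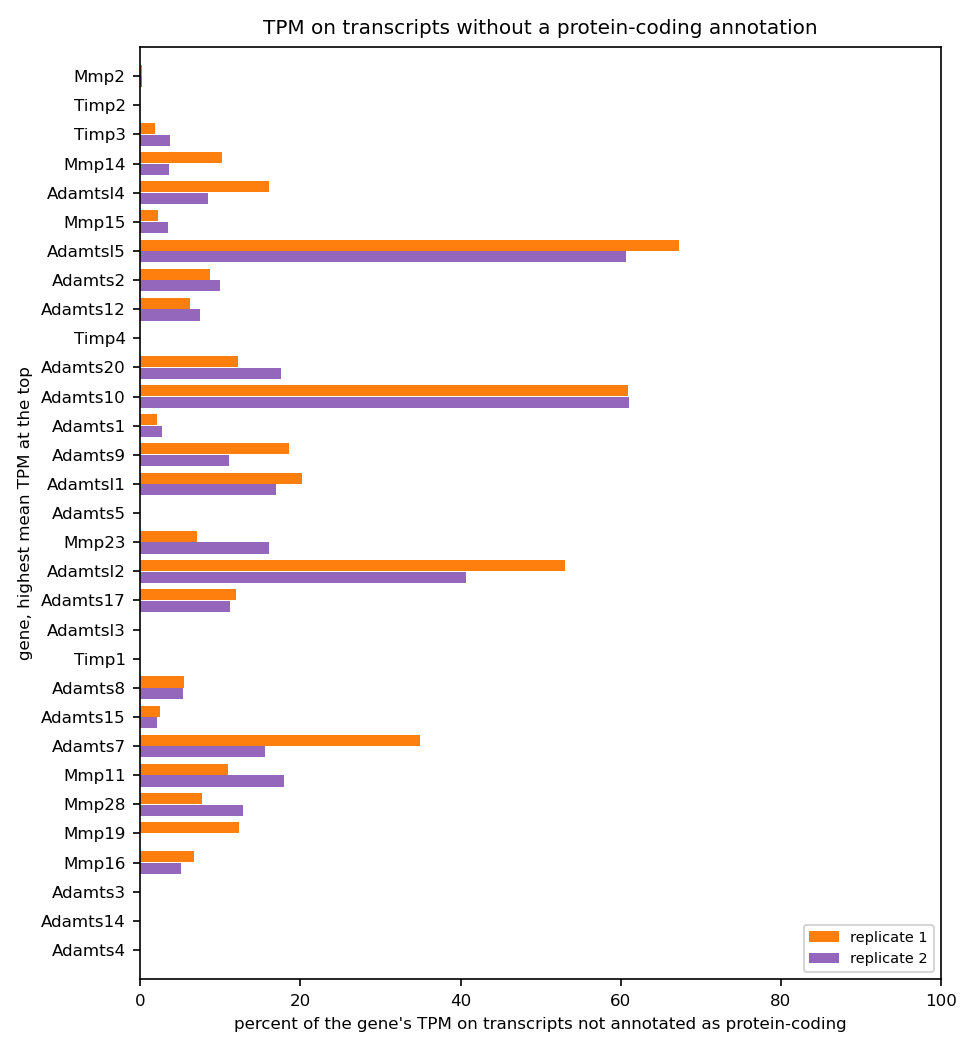
Percent of each gene's TPM on transcripts not annotated as protein-coding (retained introns, nonsense-mediated decay and processed transcripts), as bars for replicate 1 and replicate 2, with genes in order of mean TPM. Adamtsl5, Adamts10 and Adamtsl2 have the longest bars in both libraries, from 40.7% to 67.3%.

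No MMP of a run of genes on chromosome 9 reached 1 TPM, and not all of those elsewhere did. On chromosome 9, from base 7272514 to 7699585, lie 10 MMP genes side by side: Mmp13, Mmp12, Mmp1b, Mmp3, Mmp1a, Mmp10, Mmp8, Mmp27, Mmp20 and Mmp7. No protein-coding gene of another family lies among them, and Mmp1a is annotated as a polymorphic pseudogene. All 10 together had 12 and 14 counts, 5 of them had 0 in both libraries, and the highest, Mmp27, had a mean of 0.09 TPM. The direct quantification gave 31.2 and 52.9 counts, with Mmp12 as the highest at a mean of 0.283 TPM. Of the 13 MMP genes elsewhere, 8 passed 1 TPM in both libraries, and 2, Mmp21 and Mmp24, had a summed count under 20. The run holds the collagenases, most stromelysins, macrophage elastase (Mmp12) and the tooth enamel enzyme Mmp20.

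The promoters of the run differ from those of the other members in letters that the choice of members did not use. The next sequences are the 250 bases before the RefSeq start (GRCm38.p6) of 2 genes of the run and of 3 members well above 1 TPM. Capitals mark matches, on either strand, to the AP-1 motif TGANTCA, to TATAAA and to the GC box GGGCGG.
Mmp10, chr9:7502092-7502341, plus strand: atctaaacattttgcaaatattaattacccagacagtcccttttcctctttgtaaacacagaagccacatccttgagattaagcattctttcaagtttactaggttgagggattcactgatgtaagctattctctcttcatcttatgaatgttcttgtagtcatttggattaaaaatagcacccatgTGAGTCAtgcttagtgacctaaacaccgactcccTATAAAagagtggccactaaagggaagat
Mmp3, chr9:7445572-7445821, plus strand: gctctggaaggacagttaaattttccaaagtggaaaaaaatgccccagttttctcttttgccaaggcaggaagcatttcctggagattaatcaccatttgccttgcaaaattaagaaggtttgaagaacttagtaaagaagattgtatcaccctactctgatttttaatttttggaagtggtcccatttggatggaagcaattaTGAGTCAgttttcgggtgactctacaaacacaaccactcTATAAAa
Mmp14, chr14:54431348-54431597, plus strand: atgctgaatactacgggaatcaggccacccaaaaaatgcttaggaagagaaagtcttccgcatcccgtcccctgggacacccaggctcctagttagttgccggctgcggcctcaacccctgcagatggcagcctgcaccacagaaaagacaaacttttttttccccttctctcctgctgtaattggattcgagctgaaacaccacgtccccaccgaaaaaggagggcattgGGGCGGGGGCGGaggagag
Timp2, chr11:118355412-118355661, minus strand: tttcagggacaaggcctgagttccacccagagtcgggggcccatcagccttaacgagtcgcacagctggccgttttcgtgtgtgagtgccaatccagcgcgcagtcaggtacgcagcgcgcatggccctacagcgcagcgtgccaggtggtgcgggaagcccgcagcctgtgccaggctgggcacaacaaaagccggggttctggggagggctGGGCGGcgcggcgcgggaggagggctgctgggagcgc
Timp4, chr6:115252206-115252455, minus strand: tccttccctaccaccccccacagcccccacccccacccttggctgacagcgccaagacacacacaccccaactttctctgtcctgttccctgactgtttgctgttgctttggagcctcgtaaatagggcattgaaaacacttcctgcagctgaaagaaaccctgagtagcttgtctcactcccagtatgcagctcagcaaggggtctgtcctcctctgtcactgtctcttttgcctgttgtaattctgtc
Mmp10 and Mmp3 each hold an AP-1 match and a TATAAA match, Mmp14 and Timp2 hold GC boxes, and Timp4 holds none of the 3. The table had entries for 36 of the 51 members, in 39 windows, and Mmp2 was not among them.

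In the run, AP-1 was matched in 8 of 12 windows (66.7%) and TATAAA in 7 (58.3%), and the GC box in 0. Among the 22 windows of members with at least 1 TPM, AP-1 was matched in 0, TATAAA in 2 (9.09%) and the GC box in 17 (77.3%). Of all 32851 windows in the table, 6.75% matched AP-1, 12.4% TATAAA and 32.7% the GC box. Windows of genes with under 20 counts over both libraries, the level of the run, matched AP-1 in 8.69%, TATAAA in 17.7% and the GC box in 17.3%. The median ratio of observed to expected CpG, over the windows of 300 bases, was 0.0862 in the run and 0.699 in the members with at least 1 TPM, beside 0.222 and 0.759 for all genes of those levels. Timp4 was the member of at least 1 TPM with the lowest CpG ratio, 0.104. The genes of the run are related copies and some have 2 windows, and motifs and groups were chosen with the levels known, so these shares are a description without a test.

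**Figure D4:**
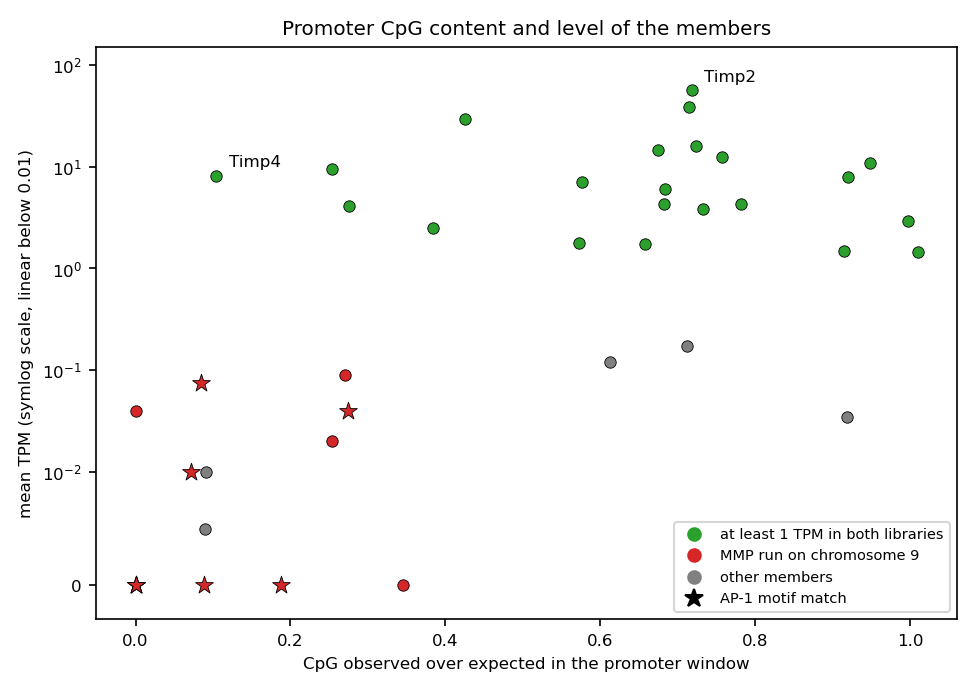
Ratio of observed to expected CpG in each promoter window (x axis) against the gene's mean TPM (y axis, linear below 0.01 and log above). The windows of the chromosome 9 run lie at the lower left with ratios up to 0.345 and hold every AP-1 match (stars), and Timp4, at 0.104, has the lowest ratio among the members with at least 1 TPM.

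Between the libraries, the level of 38 members with a summed count of at least 20 could be compared. Ratios of replicate 2 over replicate 1 are of counts scaled by the trimmed mean of M-values (TMM), and their intervals (95%, exact Clopper-Pearson) cover counting error only. With 1 library on each side there is no test between them. At least 1.5-fold higher in replicate 2 were 6 of 38 members (15.8%, beside 7.98% of all genes so tested), and at least 1.5-fold lower were 2 (5.26%, beside 5.64%). The other 13 of the 51 members fell under the summed count. The median log2 ratio of the 38 was 0.183, beside 0.010 for all genes, and 25 of the 38 lay above 0, beside 51.6% of all genes. Among genes with a summed count of at least 100, 5 of 35 members were higher, beside 4.41% of all such genes, and 2 were lower, beside 3.41%.

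Timp4 differed the most, with 1135 and 555 counts. Its log2 ratio was -1.40 (-1.55 to -1.26), or 2.64-fold lower in replicate 2, and 49 of the 12536 genes with at least 100 counts had a ratio as low, Timp4 included. Timp4 was the only member whose counting interval lay wholly past 1.5-fold. Its long transcript of 5496 bases went from 1038 to 481.4 expected counts and its short one of 945 bases from 97.31 to 73.55. The other TIMPs did not share this: Timp2 was at 0.26 (0.20 to 0.32), Timp3 at -0.14 (-0.19 to -0.08) and Timp1 at 0.21 (-0.34 to 0.79). Adamtsl2, a microfibril-bound protein, was the other member lower in replicate 2, at -0.75 (-1.0 to -0.50) from 315 and 242 counts. Its protein-coding transcript of 3612 bases went from 240.8 to 208.2 expected counts. Its retained introns of 5956 and 442 bases went from 33.07 to 1.27 and from 15.64 to 3.59. The retained intron of 1069 bases went from 25.46 to 28.91, with 0.93 and 0.92 TPM. Expected counts of transcripts in this paragraph are not scaled, and replicate 2 had the larger sum of gene counts.

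The 6 members higher in replicate 2 all had few counts. Adamts19 had 50 and 131 counts and a log2 ratio of 1.01 (0.54 to 1.52), and Adamts16 had 55 and 128 counts and 0.84 (0.38 to 1.33). Mmp16 had 106 and 240 counts and 0.81 (0.47 to 1.15). Its TPM ratio was lower, at 0.42. The deposited mean length of the gene was 2937 and 4253 bases, and the share of its long transcript 46.14% and 78.58%. Mmp23 had 110 and 223 counts and 0.65 (0.31 to 0.99), and Mmp11 had 62 and 123 and 0.62 (0.17 to 1.08). Mmp9, with 27 and 57 counts, was at 0.70 (0.02 to 1.43).

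The most abundant members stayed under 1.5-fold, in both directions. Mmp2 was at 0.22 (0.16 to 0.28), Mmp14 at 0.28 (0.19 to 0.37) and Mmp15 at 0.39 (0.30 to 0.48). Adamtsl4, between Mmp14 and Mmp15 in mean level, went the other way, at -0.53 (-0.63 to -0.43), or 1.45-fold lower. Of the 7 hyalectanases 3 lay above 0 and 4 below, from 0.36 for Adamts20 to -0.53 for Adamts15, and none passed 1.5-fold. Among the 3 above, the intervals of Adamts5 (-0.08 to 0.12) and Adamts4 (-0.10 to 0.54) held 0, whereas those of the 4 below did not. The 3 procollagen N-proteinases all had ratios above 0, but the interval of Adamts3 held 0. They were at 0.36 (0.27 to 0.45) for Adamts2, 0.29 (-0.05 to 0.63) for Adamts3 and 0.54 (0.26 to 0.83) for Adamts14. Adamts17 was at 0.54 on the scale of counts and at 1.09 on the scale of TPM. Counting intervals left out 0 for 24 of the 38 members and for 38.3% of all genes. Of the members 16 lay above 0 and 8 below, and of all genes 19.1% above and 19.2% below.

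**Figure D5:**
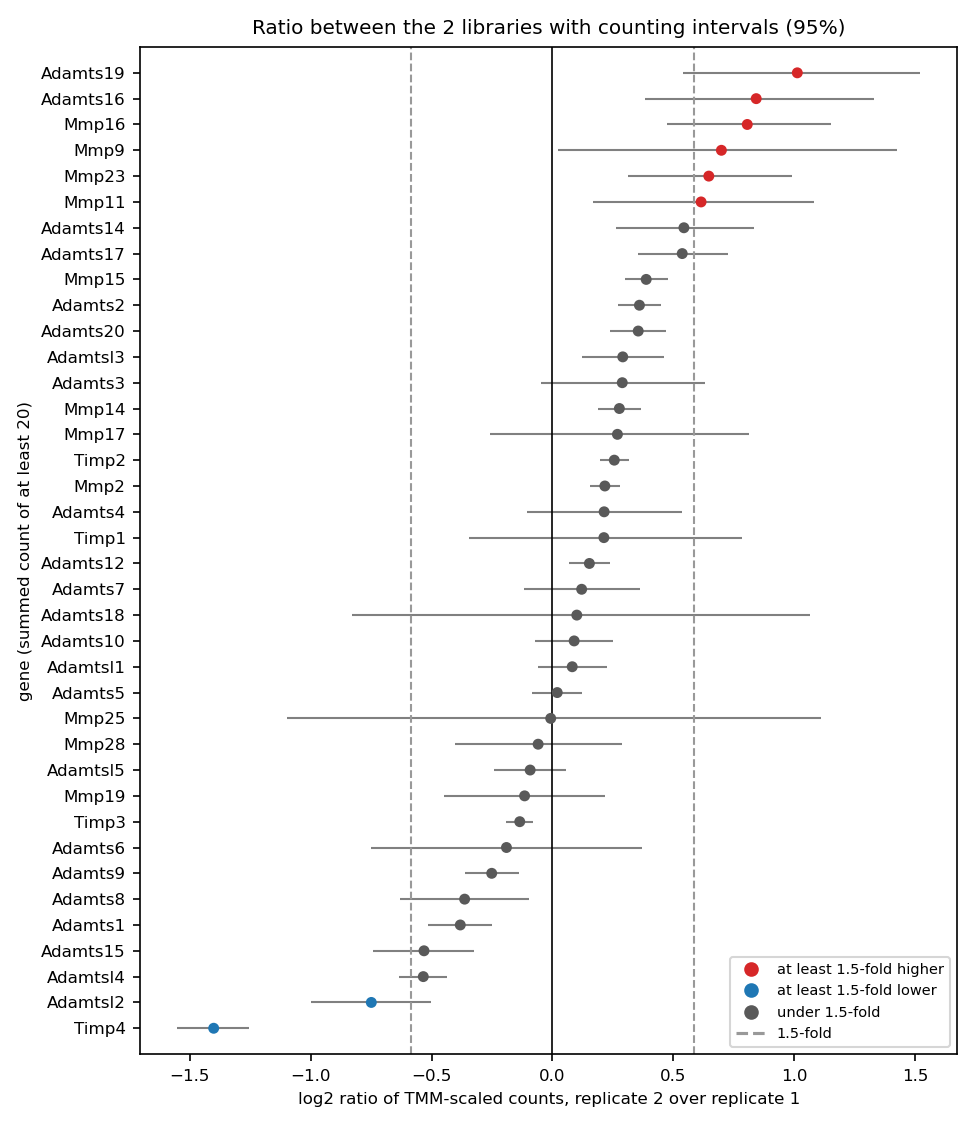
Log2 ratio of TMM-scaled counts, replicate 2 over replicate 1, for the 38 members with a summed count of at least 20, with 95% counting intervals as bars and dashed lines at 1.5-fold. Timp4 stands apart at -1.40, and the 6 red points, from 0.62 for Mmp11 to 1.01 for Adamts19, have bars that cross the dashed line.

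Markers of other cells moved between the libraries too, and their part in the members' ratios was not tested. Of the Schwann cell markers, Mbp, a protein of the myelin sheath, was at 52.80 and 142.9 TPM and Pmp22, another, at 73.40 and 164.9 TPM, both over 1.5-fold higher in replicate 2. All 3 tested cartilage and bone markers, Col2a1, Acan and Sox9, were over 1.5-fold higher, with Ibsp at 0 in both libraries. The ratio of summed TPM, replicate 2 over replicate 1, was 1.41 for tendon, 1.28 for fibro-adipogenic cells and 1.25 for macrophages. It was 1.11 for satellite cells, 1.06 for muscle fibres and 0.961 for endothelium. For neutrophils it was 0.264, from 2.5 and 0.66 TPM in all, and their 1 tested marker, S100a9, was lower with 15 and 5 counts, whereas Mmp9 was higher. For mural cells it was 1.56, where Acta2, at 119.3 and 306.1 TPM, was the 1 of 7 markers past 1.5-fold. By TMM-scaled counts the median log2 ratio was 0.469 for tendon, 0.199 for fibro-adipogenic, 0.115 for satellite and 0.094 for macrophage markers. It lay below 0 for muscle fibre (-0.069), mural (-0.106) and endothelial markers (-0.202). All genes had a median log2 ratio of 0.010 by these counts and 0.167 by TPM.

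Genes that work with the members were set beside them, and their counts are to be read beside the same 7.98% of all genes higher and 5.64% lower. Of 14 tested activators and regulators 0 were past 1.5-fold in either direction, close to the shares of all genes, with a median log2 ratio of -0.075. The highest were Bsg, the surface inducer of MMPs, at 253.2 and 241.7 TPM, the scavenger receptor Lrp1 at 36.59 and 49.17 TPM and the precursor convertase Furin at 23.59 and 24.09 TPM. Plasminogen (Plg), which is made in the liver, had 0 and 1 counts.

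Of 11 tested procollagen processing genes 2 were higher in replicate 2 and 0 lower, with a median of 0.357. These were Loxl1, a collagen and elastin cross-linking enzyme, at 0.63 (0.53 to 0.74), and Tll2 from 9 and 20 counts. The collagen chaperone Serpinh1 was at 83.41 and 120.9 TPM, the enhancer Pcolce at 78.20 and 122.6 TPM and Loxl2 at 22.48 and 30.16 TPM.

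Of 14 tested substrates 5 were higher and 0 lower, with a median of 0.498. Col1a1 was at 1128 and 1958 TPM and a log2 ratio of 0.63, and the others were elastin (Eln) at 0.64, Vcan at 0.77, Fbn2 at 0.87 and Acan at 1.04. Acan is also among the cartilage and bone markers above, and Comp, another listed substrate, among the tendon markers. Col3a1 was at 759.5 and 1135 TPM with a log2 ratio of TMM-scaled counts of 0.42. Col1a2 was at 676.0 and 1119 TPM with a ratio of 0.583 on that scale, just under 1.5-fold, although its TPM differed by more. The basement membrane chains Col4a1 and Col4a2, at -0.20 and -0.13, lay below 0.

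Of 8 tested ADAM proteases, the cell surface relatives of ADAMTS, 1 was higher and 0 lower, close to the shares of all genes, with a median of 0.123. That 1 was Adam12, known from fusing and regenerating muscle, at 2.41 and 3.38 TPM and a log2 ratio of 0.60 (0.40 to 0.81). Adam9 was at 15.82 and 17.95 TPM, Adam15 at 14.64 and 17.08 TPM and Adam10 at 12.66 and 17.52 TPM.

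Some members share exon bases with a neighbour on the opposite strand, 13 of the 51 in all, and whether counting used the strand is not given in the sources used here. If it was not used, reads of such partners could not be told apart in the shared bases. In the gene table, however, all member counts were whole numbers with a posterior standard deviation of 0. No member count there held a fraction of a read divided with a partner. Mmp11 shares 155 bases with Chchd10, at 480.1 and 419.8 TPM. Mmp19 shares 789 bases with Tmem198b, 22.3% of its exon bases. Timp1, Timp3 and Timp4 each lie inside a synapsin gene on the opposite strand: Syn1, Syn3 and Syn2. Timp4 shares 90 bases with Syn2, which had 112 and 121 counts and a log2 ratio of -0.26, and Timp3 shares 1733 with Syn3, which had 9 and 9 counts.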

How the data were processed

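Total RNA of 2 libraries of 1 group was measured. For each, the authors deposited a gene and a transcript table from alignments, and a second transcript table whose values come straight from reads. Per the file headers the first hold expected counts, TPM, a posterior mean TPM with interval bounds (used as a signal), a posterior standard deviation and the isoform percent, and the second estimated counts and TPM. The deposited notes name mm10 and GENCODE M21. The aligner and quantifiers are not named: not given in the sources used here. C57BL/6J is the reference, and how many reads of CAST/EiJ alleles it loses was not measured. The reads were not used.

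Expected counts were rounded. Ratios used TMM from edgeR 4.0.16, a prior count of 0.5 and a summed count of at least 20 over all genes, with 1.5-fold as the limit, and were tested on simulated data. DESeq2 1.42.0 size factors were an alternative. With 1 library on each side no residual degrees of freedom were left, so no p-value is given. Scripts ran in Python 3.11.15 with scipy 1.17.1, numpy 2.4.6, pandas 2.3.3 and matplotlib 3.10.9, and in R 4.3.3.

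The members, lists, markers and limits were chosen with earlier results of these data known. The rule names members with at least 1 TPM in both libraries, those at least 1.5-fold apart with a summed count of at least 100, the highest of each role class and, in other lists, the 3 of highest mean TPM and those at least 1.5-fold apart with a summed count of at least 100. Other members (Mmp9 among them), Tll2, Col4a1, Col4a2, Vcan and Acan levels, Plg, markers, overlapping neighbours, motifs, promoter groups, the zinc pattern and the chromosome 9 run were added with values seen. Promoter sequences are from RefSeq. Some listed markers and neighbours are not reported here.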

Additional observations from a re-analysis of the deposited data

How the results depend on the processing

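Under the other settings, 31 members had at least 1 TPM in both libraries by the direct quantification, by posterior mean TPM, after rescaling to nuclear protein-coding genes, in either library alone and at 0.5 TPM, and 35 had at least 1 CPM and 22 at least 2 TPM. The mean TIMP to MMP ratio of 0.876 became 1.14 by the direct quantification and 1.14 in CPM, and ranged from 0.808 to 0.944 with each library left out. The share of the 3 highest, 47.2%, became 50.2% and 38.7%, was 45.7% by posterior mean TPM, and ranged from 46.1% to 48.3%. In CPM, which is not divided by length, Timp3, Mmp15 and Adamts5 led their classes. The most abundant transcript was the same in both libraries for 30 genes in either quantification.

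Members at least 1.5-fold higher numbered 5 to 9 over the other scalings, filters, prior count and table, and the share of all genes moved too. It was 15.2% by spike-ins beside 9 of 38 members, 11.5% by library size beside 8 of 38, 14.0% by TPM beside 8 of 38, 19.9% with no filter beside 7 of 46, and 4.41% to 7.91% in the others. Members lower numbered 2, except that spike-in scaling gave 1 (Adamtsl2 at -0.53) and no filter 4. At 2-fold they were 1 and 1 of 38, Adamts19 and Timp4, near the share of all genes (2.61% and 2.06%). The median log2 ratio of members was 0.310 by library size (all genes 0.138), 0.402 by spike-ins (all genes 0.230) and 0.346 as a TPM ratio (all genes 0.167), the last an alternative chosen after seeing the data. Relative to all genes it was 0.172 by library size, 0.173 by spike-ins and 0.179 by TPM. Timp4 stayed past 1.5-fold in 6 of 6 alternatives, from -1.47 to -1.01, as did Mmp23, Adamts16 and Adamts19, whereas Mmp11 passed in 4 of 6, and Mmp16 and Adamtsl2 in 5 of 6. Of members under 1.5-fold by TMM, Adamts14 and Adamts17 passed it in 3 of 6, Mmp15 by spike-ins alone (0.61) and Adamtsl3 as a TPM ratio alone (0.63). Timp3, Adamtsl5, Mmp28 and Mmp19, under 1.5-fold throughout, lay below 0 by TMM and reached 0.09, 0.13, 0.16 and 0.10 in their highest alternative. Leaving out a library leaves no ratio between libraries. No paired analysis was possible because the series has a single group. Members with few counts are limited by depth, as their intervals show.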

Other observations

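Mmp12, macrophage elastase, was the member on which the deposited quantifications differed most. The gene table gave it 2 and 2 counts, and the direct quantification 19 and 41. In the direct quantification 80.2% and 94.3% of its TPM lay on 1 retained intron transcript of 4474 bases, which had 0 counts in both libraries in the alignment-based table. It is the highest gene of the chromosome 9 run by the direct quantification, and Mmp27 is by the gene table. The gene was chosen after its values were seen.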
